A study of Mus musculus with 7 samples.

Results

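The genes described here encode 4 families of enzymes that clear drugs, hormones and lipids: the UDP-glucuronosyltransferases and related glycosyltransferases (Ugt), the sulfotransferases (Sult), the carboxylesterases (Ces) and the flavin-containing monooxygenases (Fmo). They were taken by name, as the protein-coding genes of the GRCm38 annotation whose symbol is Ugt, Sult, Ces or Fmo followed by a digit. This gave 69 of the 53465 genes in the count table. The families were chosen with earlier results of these data known. Kidney RNA had been sequenced from 7 MRL/lpr mice, a lupus-prone strain in which the lpr mutation of Fas lets autoreactive lymphocytes accumulate and nephritis develop. 4 mice had received AZD1152, a prodrug of an inhibitor of Aurora kinase B, and 3 had received vehicle. All mice shared the MRL/lpr background, no strain without disease was included, and the sources used here do not give the dose, schedule or age. Each mouse gave 1 poly(A)-selected library, with totals of 14692113 to 17036862 counts, and the values are CPM, counts scaled to a common library size with TMM.

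Glucuronosyltransferases join glucuronic acid from UDP-glucuronic acid to bilirubin, steroids and drugs, and sulfotransferases join sulfate from the donor PAPS to phenols, steroids and catecholamines. Both reactions make the product more soluble, so that transporters of the liver and the proximal tubule can pass it into bile or urine. Carboxylesterases cut ester and amide bonds of drugs and of stored lipids in the endoplasmic reticulum. Flavin-containing monooxygenases add oxygen to nitrogen and sulfur atoms. They therefore neither conjugate nor cut esters, and belong to the oxidation step that comes before conjugation. In the kidney these enzymes are made mainly by the epithelium of the proximal tubule.

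Several of the abundant oxygenase and esterase genes were higher in the kidneys of mice given AZD1152. Of the 5 tested sulfotransferases and the 5 tested Ces2 esterases, 0 and 0 passed the edgeR test, with 2 and 0 below an unadjusted p of 0.05. With 7.83% of all tested genes called, 0 of 5 does not set either group apart. Of the 69 genes, 17 had 0 counts in all 7 libraries, 20 had counts too low for the test, and 32 were tested. Against vehicle, 6 of these 32 rose and 0 fell (edgeR quasi-likelihood fit, threshold of 0.05 after Benjamini-Hochberg adjustment over every gene), while of all 15774 genes tested 7.83% were called, 3.02% as rises and 4.81% as falls. The 6 were Fmo1, Fmo2, Fmo5, Ces1d, Ces1e and Ugt1a7c. At an unadjusted p under 0.05, 13 were higher and 1 was lower, beside 11.7% and 13.1% of all genes, and DESeq2 called 8 higher and 1 lower, beside 6.14% and 7.33%. The median log2 fold change over the 32 tested genes was 0.30, beside -0.000597 over all genes tested, and 24 estimates were positive and 8 negative. The number of enzyme genes that rose depended on single libraries. It was 1 without vehicle replicate 3, 2 without AZD1152 replicate 4, 3 without vehicle replicate 1 or 2, 4 without AZD1152 replicate 2, and 5 without AZD1152 replicate 1 or 3. Over all genes, the 476 rises became 60 without vehicle replicate 3, 107 without AZD1152 replicate 4 and 126 without vehicle replicate 1. They became 311, 229 and 248 without AZD1152 replicates 1, 2 and 3. Without vehicle replicate 2 they stayed at 475, while the enzyme genes that rose went from 6 to 3.

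**Figure D1:**
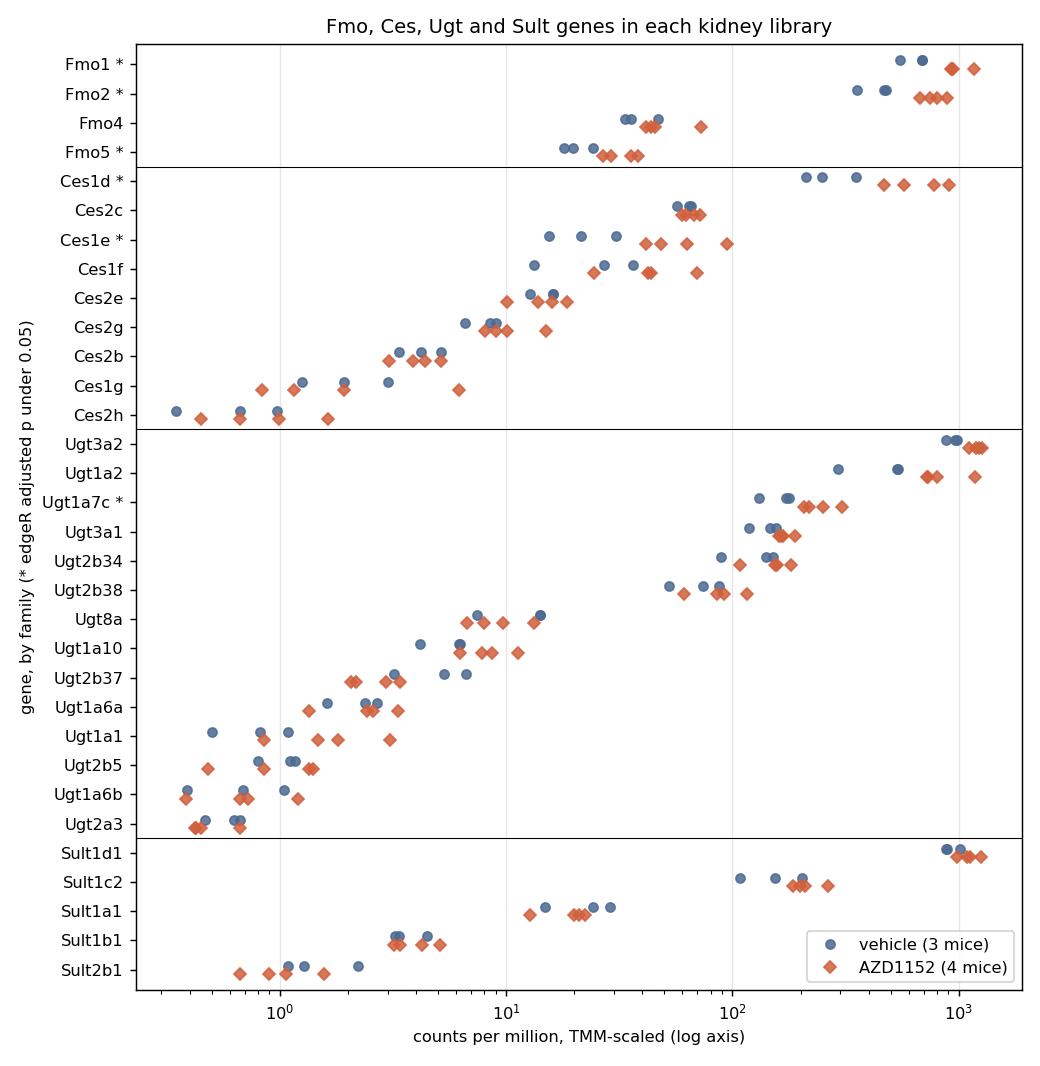
TMM-scaled CPM of the 32 tested genes on a log axis, 1 point per library (circles, 3 vehicle mice; diamonds, 4 AZD1152 mice), ordered by family and mean level; an asterisk marks an edgeR adjusted p under 0.05. In 9 genes, all 4 AZD1152 libraries lie above all 3 vehicle libraries, and in 0 genes do they all lie below.

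In 9 of the 32 genes the libraries of the 2 groups did not overlap, with AZD1152 higher in all 9, beside 11.2% of all tested genes that were separated in that direction and 11.6% in the other. These were the 6 called genes together with Ugt1a2, Ugt3a1 and Ugt3a2. AZD1152 replicate 2 was the highest of the treated libraries in 22 of the 32 genes, beside 4757 of all 15774 tested genes. Vehicle replicate 3 was the lowest of the control libraries in 16 of the 32, beside 5802 of the 15774. AZD1152 replicate 2 also had the largest share of counts from the mitochondrial genome, 11.6%, where the other treated libraries had 9.41% to 9.76% and the vehicle libraries 8.03% to 9.0%. The part of this difference in the results was not tested.

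Markers of the proximal tubule were higher in the same libraries. Of 20 such markers 10 rose and 0 fell, around a median of 0.58 on the log2 scale, and their summed level was 17796 to 23029 CPM with vehicle and 28270 to 35486 CPM with AZD1152. In bulk tissue, more tubule cells and more RNA per tubule cell cannot be told apart. Markers of macrophages and T cells were lower, with 9 of 12 and 6 of 10 falling and medians of -1.02 and -1.39. Their summed levels were 971 to 1334 CPM with vehicle and 452 to 694 CPM with AZD1152 for macrophages, and 100.3 to 158 CPM and 48.3 to 73.9 CPM for T cells. Markers of other tubule segments moved too. 3 of 6 for the distal convoluted tubule rose and 0 fell (median 0.57), as did 3 of 9 tested for the collecting duct (median 0.24). For the loop of Henle 0 of 8 passed in edgeR, with 1 below an unadjusted p of 0.05. For podocytes, endothelium, and B and plasma cells, 0 of 6, 0 of 7 and 0 of 8 passed, beside 7.83% of all tested genes. These 3 lists had medians of 0.12, -0.02 and -0.73, and 2, 0 and 2 genes below an unadjusted p of 0.05. Of 11 markers of tubular injury 7 fell and 0 rose (median -0.998), with sums of 3672 to 5045 CPM with vehicle and 2012 to 3173 CPM with AZD1152. The part of these changes in the enzyme results was not tested. Ces1d is also abundant in liver and fat. Of 13 hepatocyte markers 7 were tested and 0 passed in edgeR, with 3 below an unadjusted p of 0.05, and Alb, which encodes albumin, stood at 5.29 ± 2.04 CPM in vehicle mice (SD, n = 3) and at 9.34 ± 3.01 CPM in AZD1152 mice (SD, n = 4), with overlap. Summed hepatocyte markers stood at 651 to 731 and 744 to 1035 CPM in the vehicle and AZD1152 libraries, of which Apob made up 559.6 ± 19.9 and 692 ± 109.2 CPM. Cyp2e1, the hepatocyte marker with the smallest p, had 83.7 ± 26.2 and 156 ± 45.9 CPM without overlap (0.90 ± 0.26, edgeR adjusted p = 0.0656). Other tested hepatocyte markers went the other way. Fga had 32.8 ± 15.7 and 17.7 ± 8.18 CPM with overlap (-0.88 ± 0.42). Fgg and Serpina1a had log2 fold changes of -0.15 ± 0.25 and -0.22 ± 0.48, and Ttr had 0.26 ± 0.55. The other 6 markers of the list, among them Ahsg, Apoa1 and Cps1, were too low for the test, and the part of hepatocyte RNA in the Ces1d result was not tested. Among 8 fat markers Adipoq and Lep had 0 counts in every library, and Fabp4, the only 1 tested, did not pass. Among 8 markers of the adrenal cortex, Cyp11b2 and Nr5a1 had 0 counts, and the summed level stayed between 3.54 and 5.75 CPM in all libraries.

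**Figure D2:**
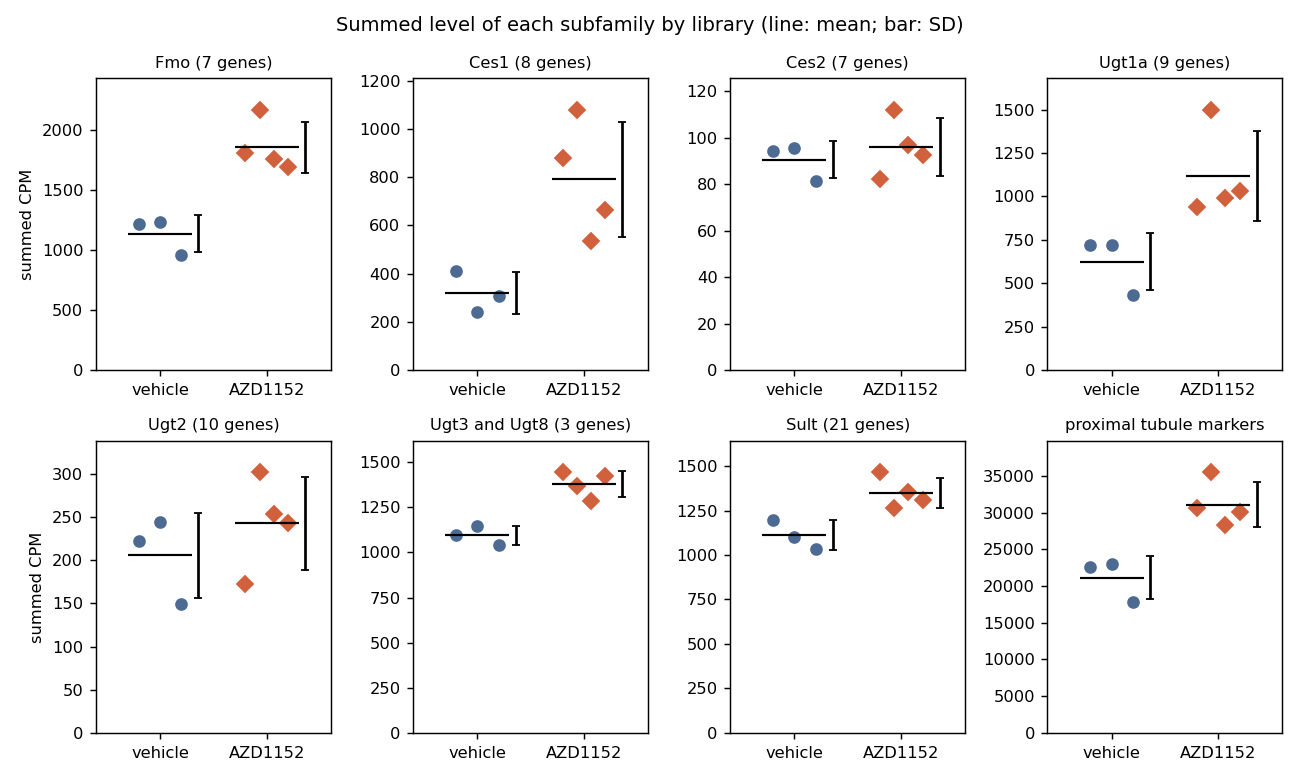
Summed TMM-scaled CPM of each subfamily and of 20 proximal tubule markers, 1 point per library, with the group mean as a line and the SD as a bar beside it. The sums of the Fmo, Ces1, Ugt1a, Ugt3 and Ugt8, and Sult genes and of the tubule markers are higher in all 4 AZD1152 libraries than in all 3 vehicle libraries, and those of Ces2 and Ugt2 overlap.

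Summed within each subfamily, the increase was unequal. The 8 Ces1 genes together summed to 321 ± 85.9 CPM in the vehicle mice (SD, n = 3) and to 790.2 ± 239.7 CPM in the AZD1152 mice (SD, n = 4), whereas the 7 Ces2 genes had 90.4 ± 7.89 and 95.8 ± 12.4 CPM. The 7 Fmo genes had 1136 ± 152 and 1854 ± 213 CPM, and the 9 Ugt1a genes 625 ± 167 and 1116 ± 258 CPM. For the 10 Ugt2 genes the sums were 205 ± 49.6 and 242 ± 53.5 CPM. The 21 sulfotransferases came to 1112 ± 83.1 and 1349 ± 84.8 CPM. These sums are descriptions, and each is carried by 1 or a few genes, as set out below.

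The promoters of the genes that rose are shown next, as a description. These genes were picked for having risen, so their common direction follows from that choice. The RefSeq table of GRCm38.p6 held a promoter for 57 of the 69 genes and for 4 of the 6 that rose, and the promoters of Ces1d and Fmo1 were not among them. The windows below are the 250 bases before the start that RefSeq gives, on the strand of the gene, for the 3 called genes whose window lies wholly outside the gene as annotated. They lie at chr8:93229620-93229869 (minus strand) for Ces1e, chr1:162898759-162899008 (minus) for Fmo2 and chr1:88094751-88095000 (plus) for Ugt1a7c. For Fmo5, 215 of the 250 bases lie inside the annotated gene, and its window is not shown. Capitals mark matches, on either strand, to GTTAAT (one arm of the palindrome bound by HNF1), CAAAG (core of an HNF4 site), TATAAA (a core element near many start sites) or GCGTG (core of an Ahr site), none of which contains another.
Ces1e: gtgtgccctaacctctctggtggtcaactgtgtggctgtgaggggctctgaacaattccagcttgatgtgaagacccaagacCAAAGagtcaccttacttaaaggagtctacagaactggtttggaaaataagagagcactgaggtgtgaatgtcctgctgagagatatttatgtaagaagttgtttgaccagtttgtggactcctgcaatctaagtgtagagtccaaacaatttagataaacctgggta
Fmo2: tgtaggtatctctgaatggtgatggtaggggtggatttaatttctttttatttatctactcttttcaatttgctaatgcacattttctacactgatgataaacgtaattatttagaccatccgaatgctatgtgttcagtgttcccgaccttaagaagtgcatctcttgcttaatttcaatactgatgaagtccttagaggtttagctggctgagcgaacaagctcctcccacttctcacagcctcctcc
Ugt1a7c: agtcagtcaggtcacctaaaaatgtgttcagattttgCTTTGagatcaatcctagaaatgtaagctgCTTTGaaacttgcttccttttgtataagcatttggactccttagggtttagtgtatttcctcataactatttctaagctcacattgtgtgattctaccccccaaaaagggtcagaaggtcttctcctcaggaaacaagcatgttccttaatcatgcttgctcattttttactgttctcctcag
Ces1e held the HNF4 letters once and Ugt1a7c held them at 2 places, whereas Fmo2 held none of the 4 motifs. In windows that also include the first 50 bases of the transcript, GTTAAT was present in 16 of 57 promoters of the 4 families (28.1%), beside 7.1% of 32851 mouse promoters of the same length. Those 16 comprised 13 of 37 Ugt and Sult promoters and 3 of 20 Ces and Fmo promoters, and 0 of the 4 called genes with a window. CAAAG was in 37 of 57 (64.9%, beside 53.9% of all), TATAAA in 15 (26.3%, beside 13.6%) and GCGTG in 6 (10.5%, beside 32.4%). Among the 26 promoters of tested genes, GTTAAT was in 7, CAAAG in 17, TATAAA in 4 and GCGTG in 4. Many of the 57 belong to clusters of related genes, so they are not independent. A match of these letters is a description of the sequence and not a binding site.

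Among the Fmo genes, Fmo1, Fmo2 and Fmo5 rose. Fmo2 (ENSMUSG00000040170; GRCm38 chromosome 1, 162874317 to 162898726, minus strand) encodes a monooxygenase that acts on thioureas and primary amines. Its levels were 465, 478 and 357 CPM in vehicle replicates 1 to 3 and 799.7, 887, 749 and 677 CPM in AZD1152 replicates 1 to 4. All treated libraries thus lay above all vehicle libraries, and the log2 fold change with its standard error was 0.84 ± 0.13 (adjusted p = 0.0127, edgeR). Of the 6 calls it was the only one to hold without any 1 of the 7 libraries (adjusted p = 0.0213 to 0.0406). Fmo1 (ENSMUSG00000040181; chromosome 1, 162829561 to 162866610, minus strand), its neighbour and a broad oxygenase of tertiary amines, was at 688, 691 and 550.0 CPM with vehicle and at 925, 1171, 931 and 943 CPM with AZD1152. 3 treated libraries lay close together and replicate 2 stood above them. The estimate was 0.63 ± 0.13 on the log2 scale (adjusted p = 0.0242, edgeR). This call was lost without vehicle replicate 1, vehicle replicate 3 or AZD1152 replicate 4 (adjusted p = 0.061, 0.0784 and 0.0555).

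Fmo5 (ENSMUSG00000028088; chromosome 3, 97628804 to 97655282, plus strand) lies apart from the chromosome 1 cluster and encodes an enzyme that inserts oxygen next to carbonyl groups. It was at 24.2, 18.0 and 19.7 CPM with vehicle and 38.2, 35.6, 26.8 and 29.2 CPM with AZD1152, with no overlap (log2 fold change 0.66 ± 0.15, edgeR adjusted p = 0.038). On leaving out 1 library, the Fmo5 call held without AZD1152 replicate 3 and was lost in the other 6 cases (adjusted p = 0.052 to 0.136), and also when total counts replaced TMM (adjusted p = 0.0648). Fmo4 (ENSMUSG00000026692; chromosome 1, 162793188 to 162813972, minus strand) had 35.7, 47.1 and 33.5 CPM with vehicle and 41.6, 72.3, 45.4 and 43.8 CPM with AZD1152. The groups overlapped, and Fmo4 did not pass (0.39 ± 0.20, edgeR adjusted p = 0.278). Fmo6 and Fmo9 had 0 counts. With 0 counts, a gene may still have had up to 0.213 CPM in the shallowest library, a limit that covers counting error only.

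Ces1d and Ces1e, which lie side by side in a cluster of esterase genes on chromosome 8, had larger estimates than the Fmo genes. Ces1d (ENSMUSG00000056973; chromosome 8, 93166068 to 93197838, minus strand) encodes triacylglycerol hydrolase, which releases fatty acids from stored lipid as well as cutting drug esters. Its levels were 352, 211 and 249 CPM with vehicle and 774, 908, 468 and 571 CPM with AZD1152. Every treated library exceeded every vehicle library, and the treated libraries spread widely (681 ± 198 CPM, SD, n = 4). The log2 fold change was 1.33 ± 0.25 (edgeR adjusted p = 0.0207), and the call was lost without vehicle replicate 3 (adjusted p = 0.0873).

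Ces1e (ENSMUSG00000061959; chromosome 8, 93201218 to 93229619, minus strand) encodes egasyn, an esterase that holds beta-glucuronidase in the endoplasmic reticulum. It was at 30.6, 15.5 and 21.4 CPM with vehicle and at 62.7, 94.3, 41.7 and 48.3 CPM with AZD1152. The groups did not overlap, and the log2 fold change was 1.46 ± 0.31 (edgeR adjusted p = 0.0278). Without vehicle replicate 2, vehicle replicate 3 or AZD1152 replicate 4 the Ces1e call was lost (adjusted p = 0.0585, 0.11 and 0.053), as it was with a robust dispersion fit (adjusted p = 0.0595). Gusb, which encodes the beta-glucuronidase that egasyn binds and which removes glucuronic acid from conjugates, had 51.4 ± 3.58 CPM (SD, n = 3) and 41.9 ± 7.68 CPM (SD, n = 4) and did not pass (-0.30 ± 0.14, edgeR adjusted p = 0.224). Ces1f, the next gene of the cluster, named here after its values were seen, had 27.0, 13.2 and 36.4 CPM with vehicle and 42.2, 69.5, 24.5 and 43.6 CPM with AZD1152, with overlapping groups (0.81 ± 0.38, edgeR adjusted p = 0.227). The 8 Ces1 genes gave 4 tested genes, all with positive estimates (0.28 to 1.46), of which 2 rose.

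The Ces2 cluster lies on the same chromosome, and its esterases favour substrates with a small acid and a large alcohol group. Of its 7 genes 5 were tested and 0 passed in edgeR, with 0 below an unadjusted p of 0.05 and DESeq2 calling 0, and their estimates ran from -0.04 to 0.47 around a median of 0.07. Ces2c (ENSMUSG00000061825; chromosome 8, 104847068 to 104854483, plus strand) was at 65.8, 64.2 and 57.0 CPM with vehicle and 60.1, 72.1, 67.4 and 62.1 CPM with AZD1152. These groups overlapped, and the estimate was 0.07 ± 0.09 (adjusted p = 0.671, edgeR). Of the 50-base stretches of its transcripts, 36.1% also occur in another gene, chiefly the pseudogene Ces2d-ps, so its counts depend on how shared reads were assigned. For Ces1d and Ces1e such stretches made up 1.08% and 2.97%.

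The ratio of 2 genes in a library does not depend on its scaling. These genes were chosen for their difference, so the ratios are descriptions. An exact permutation test was run on all 14 ratios taken, including those to the tubule markers below. Its lowest p after Benjamini-Hochberg adjustment was 0.1, and it carries no weight after such a choice of genes. The log2 ratio of Ces1d to Ces2c was 2.09 ± 0.353 with vehicle (SD, n = 3) and 3.34 ± 0.423 with AZD1152 (SD, n = 4), and that of Ces1e to Ces2c was -1.52 ± 0.485 and -0.15 ± 0.474. Against Gusb, the log2 ratio of Ces1e was -1.25 ± 0.393 with vehicle and 0.51 ± 0.651 with AZD1152. The groups did not overlap in these 3 ratios. Another pair, Ugt1a2 to Ugt2b34, had 1.83 ± 0.104 and 2.51 ± 0.258, also without overlap. For Fmo2 to Fmo4 the groups overlapped, at 3.49 ± 0.192 with vehicle and 3.97 ± 0.27 with AZD1152.

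**Figure D3:**
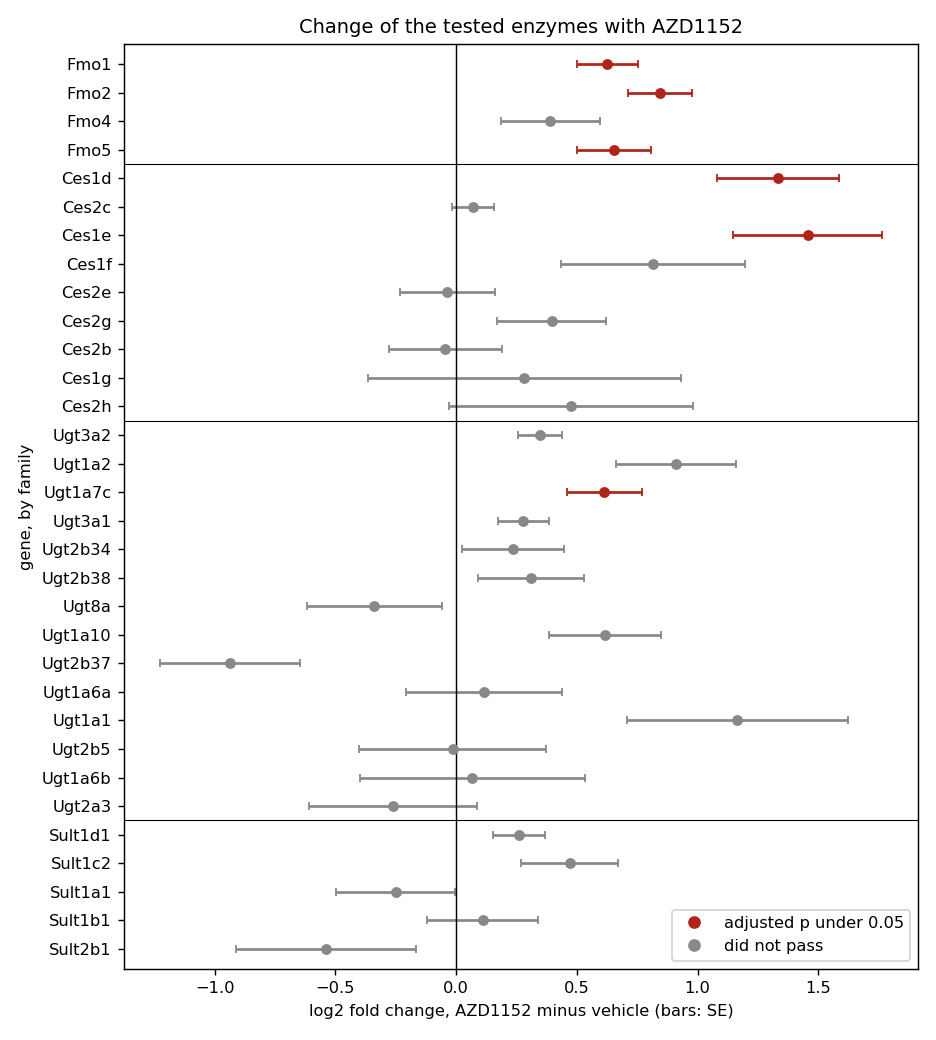
Log2 fold change of each tested gene, AZD1152 minus vehicle, with its standard error, by family; the 6 genes with an edgeR adjusted p under 0.05 are in red. Ces1d and Ces1e lie beyond 1, Ces2c lies at 0.07, and Ugt2b37 is the lowest at -0.94.

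Ratios to the 20 summed tubule markers, also chosen after the values were seen and given as descriptions, varied by gene. The log2 ratio differed between the groups by 0.76 for Ces1d, 0.88 for Ces1e and 0.29 for Fmo2, each without overlap. For Fmo1, Fmo5 and Ugt1a7c the differences were 0.07, 0.09 and 0.05, and for Ugt1a2 0.37, with overlapping groups. For Ugt3a2 and Sult1d1 they were -0.21 without overlap and -0.30 with overlap.

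The 9 Ugt1a genes are 1 locus on chromosome 1, in which each has a first exon of its own and all share 1311 bases of the following exons. Gm20528 overlaps them as well. Reads from the shared exons cannot be placed with 1 gene, and the sources used here do not say how they were counted. 6 of the 9 were tested and 1 rose. Ugt1a7c (ENSMUSG00000090124; 88095062 to 88220002, plus strand) had 172, 178 and 131 CPM with vehicle and 208, 304, 252 and 217 CPM with AZD1152. The groups did not overlap (log2 fold change 0.61 ± 0.15, edgeR adjusted p = 0.0458), but leaving out any library other than AZD1152 replicate 1 ended the call (adjusted p = 0.057 to 0.159), and with total counts in place of TMM (adjusted p = 0.0555). In the annotation it alone has 998 bases beyond the last exon base common to all 9 genes, in addition to 917 bases before the first. Whether transcripts that start at another first exon also reach these 998 bases, and so count for Ugt1a7c, was not tested.

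Ugt1a2 (ENSMUSG00000090171; 88200601 to 88218997, plus strand) was the most abundant gene of the locus, with 538, 536 and 293 CPM in vehicle libraries and 722, 1177, 728 and 799 CPM in AZD1152 libraries. The groups did not overlap, vehicle replicate 3 was low and AZD1152 replicate 2 was high, and the gene did not pass (0.91 ± 0.25, edgeR adjusted p = 0.0576). It passed in DESeq2 (adjusted p = 0.00164) and with no filter on low counts (edgeR adjusted p = 0.0117). The other tested genes of the locus were far lower. Ugt1a10 had 5.54 ± 1.19 CPM (SD, n = 3) and 8.50 ± 2.12 CPM (SD, n = 4), and Ugt1a1, which conjugates bilirubin, had 0.800 ± 0.293 and 1.80 ± 0.929 CPM. Neither passed (log2 fold changes 0.62 ± 0.23 and 1.17 ± 0.46, edgeR adjusted p = 0.141 and 0.154). For the phenol-conjugating Ugt1a6a and Ugt1a6b the log2 fold changes were 0.12 ± 0.32 and 0.07 ± 0.47, below their standard errors (edgeR adjusted p = 0.863 and 0.948). Both turned negative with total counts in place of TMM. Of the 2142 bases that Ugt1a6a alone has, 1920 lie within the stretch of the shared exons and 222 before it. Whether transcripts that start at another first exon add counts there was not tested.

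Of the 10 Ugt2 genes, which conjugate steroids and bile acids and lie in a cluster on chromosome 5, 5 were tested and 0 passed in edgeR, with 1 below an unadjusted p of 0.05 and DESeq2 calling 1. That gene was Ugt2b37, named after its values were seen and the lowest estimate of all 32. It had 5.30, 3.20 and 6.66 CPM with vehicle and 2.18, 3.39, 2.94 and 2.05 CPM with AZD1152. Vehicle replicate 2 lay within the treated range (-0.94 ± 0.29, edgeR adjusted p = 0.0821). Without that library Ugt2b37 passed (edgeR adjusted p = 0.039), as it did in DESeq2 (adjusted p = 0.0331) and with total counts in place of TMM (edgeR adjusted p = 0.0494). Ugt2b34 and Ugt2b38 were the abundant genes of this cluster, at 127 ± 33.7 and 71.3 ± 17.8 CPM with vehicle and 149.8 ± 30.6 and 88.5 ± 22.2 CPM with AZD1152. Both overlapped between groups (0.24 ± 0.21 and 0.31 ± 0.22, edgeR adjusted p = 0.535 and 0.432). Ugt2b38 and Ugt2b5 share 37.4% and 41.7% of their 50-base stretches with another gene, and Ugt2a1 and Ugt2a2, both with 0 counts, share nearly all of their exons.

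The Ugt3 enzymes use other sugars than glucuronic acid. Ugt3a2 (ENSMUSG00000049152; chromosome 15, 9335550 to 9370955, plus strand) had 963, 983 and 882 CPM with vehicle and 1269, 1192, 1112 and 1223 CPM with AZD1152, with no overlap and little spread within groups. Its log2 fold change of 0.35 ± 0.09 lay at the threshold (edgeR adjusted p = 0.0501). It passed with upper-quartile factors, a stricter filter, a robust dispersion fit (edgeR adjusted p = 0.0465, 0.047 and 0.0433) and in DESeq2 (adjusted p = 0.00057). Its neighbour Ugt3a1 had 119, 156 and 146 CPM and 161, 167, 164 and 189.5 CPM, also without overlap (0.28 ± 0.11, edgeR adjusted p = 0.145). Ugt8a, which adds galactose to ceramide in the making of myelin lipids and kidney sulfatides, had 14.2, 7.42 and 14.2 CPM and 13.2, 6.71, 7.98 and 9.71 CPM, and did not pass (-0.34 ± 0.28, edgeR adjusted p = 0.502).

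Of the 21 sulfotransferases 5 were tested and 0 passed in edgeR, with 2 below an unadjusted p of 0.05 and DESeq2 calling 0. Sult1d1 (ENSMUSG00000029273; chromosome 5, 87554645 to 87569027, minus strand), which sulfates catecholamines, had 1014, 879 and 889 CPM with vehicle and 1250.4, 984, 1119 and 1087 CPM with AZD1152. Only AZD1152 replicate 2 lay within the vehicle range (0.26 ± 0.11, edgeR adjusted p = 0.176). Sult1c2 (ENSMUSG00000023122; chromosome 17, 53829637 to 53846339, minus strand) was at 154, 202 and 108 CPM and at 186, 264, 209 and 198 CPM, with overlap (0.47 ± 0.20, edgeR adjusted p = 0.186). The phenol sulfotransferase Sult1a1 (ENSMUSG00000030711; chromosome 7, 126672865 to 126676432, minus strand) ranged from 14.8 to 28.7 CPM with vehicle and from 12.7 to 22.3 CPM with AZD1152, with overlap (-0.25 ± 0.25, edgeR adjusted p = 0.58). A further 9 genes of the family, among them 6 of the 8 Sult2a genes that sulfate steroids in liver, had 0 counts in all libraries, and 7 had counts below the filter.

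Compared per exon length, as RPKM (CPM per kilobase of exon), the vehicle mice had mean levels of 377 for Sult1d1, 304 for Ugt3a2, 206 for Ugt1a2, 114 for Ces1d, 102.0 for Fmo1, 83.7 for Sult1c2 and 77.2 for Fmo2. In the AZD1152 mice the order was Sult1d1 at 451, Ugt1a2 at 387, Ugt3a2 at 386, Ces1d at 287, Fmo1 at 157, Fmo2 at 139 and Sult1c2 at 116. Ces1e stood at 10.3 and 28.2 RPKM, beside 27.1 and 28.5 for Ces2c. The place of the Ugt1a genes is uncertain, since dividing by the bases that no other gene shares gives 761 for Ugt1a2 and 109.0 for Ugt1a7c over all 7 libraries.

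Related genes were taken from lists chosen by function. The counts of calls in each list stand beside 3.02% of all 15774 tested genes called as rises and 4.81% as falls. A list of this size with 0 or 1 call is not set apart by these shares. Some supply or complete these reactions, and others are separate conjugating enzymes and hydrolases, partners in the endoplasmic reticulum, regulators or carriers. In the list for the supply and removal of glucuronic acid, 0 of 9 passed in edgeR, with 3 at an unadjusted p under 0.05 and a median log2 fold change of 0.01. Its members with the smallest p were Ugdh, the dehydrogenase that makes UDP-glucuronic acid (-0.28 ± 0.09), and Ugp2, which makes UDP-glucose (0.30 ± 0.11), with edgeR adjusted p = 0.0985 and 0.125. In the list for PAPS and sulfatases 1 of 13 rose and 0 fell, with a median of 0.16. It was Bpnt1, which clears the phosphoadenosine left over from sulfation, at 144.9 ± 25.1 and 205 ± 16.2 CPM (0.50 ± 0.12, edgeR adjusted p = 0.0423). Without any 1 of 6 libraries, all but vehicle replicate 2, the Bpnt1 call was lost (adjusted p = 0.056 to 0.102).

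In the list for other conjugations, which also held the deacylases Acy1 and Acy3, 4 of 16 tested genes rose and 0 fell, with a median of 0.40. One of the 4, Acsm2 (0.80 on the log2 scale), is also among the 10 proximal tubule markers that rose. Nat8, an acetyltransferase that completes mercapturic acids, rose from 53.0 ± 21.8 to 129 ± 24.4 CPM (1.28 ± 0.25), Glyat, which joins glycine to acyl groups, from 266 ± 66.8 to 452 ± 28.3 CPM (0.76 ± 0.16), and Gnmt, a glycine methyltransferase, from 25.5 ± 2.53 to 34.5 ± 1.64 CPM (0.43 ± 0.09). Their edgeR adjusted p were 0.0224, 0.0276 and 0.0288. The Nat8 call was lost without vehicle replicate 3 (edgeR adjusted p = 0.0894). The Glyat call was lost without vehicle replicate 1 or AZD1152 replicate 2 or 4 (0.054, 0.0558 and 0.0604), and Gnmt failed on leaving out vehicle replicate 1 or 3, or AZD1152 replicate 3 or 4 (0.0918, 0.107, 0.0587 and 0.0786). Nat8 belongs to a family of similar genes, and its sharing of reads with them was not examined.

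In the list of hydrolases outside the Ces family 4 of 15 tested genes rose and 0 fell, with a median of 0.28. The list also held Aadat, an aminotransferase, and without it 4 of 14 rose around a median of 0.31. Ephx2, the soluble epoxide hydrolase, rose from 128 ± 18.8 to 199.5 ± 9.50 CPM (0.64 ± 0.10, edgeR adjusted p = 0.0137), and this call held without any 1 of the 7 libraries. Aadac, a microsomal esterase of arylamides, and Mgll, which cleaves monoacylglycerol, rose as well, with log2 fold changes of 0.55 ± 0.13 and 0.53 ± 0.12 (adjusted p = 0.0369 and 0.037, edgeR). Aadac was lost without each library except vehicle replicate 2 (edgeR adjusted p = 0.0514 to 0.0929), and Mgll without any vehicle replicate or AZD1152 replicate 4 (0.0717 to 0.122).

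**Figure D4:**
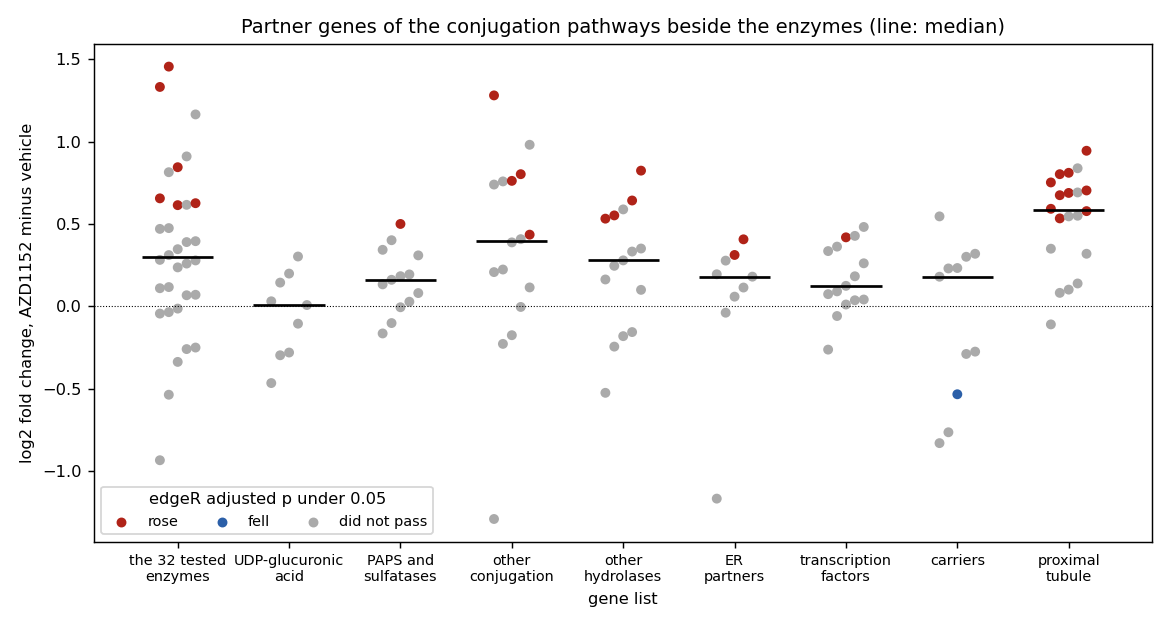
Log2 fold change, AZD1152 minus vehicle, of each of the 32 tested enzyme genes as 1 set (left), in 7 lists of related genes and in the proximal tubule markers (right). The line is the median, and colours mark an edgeR adjusted p under 0.05. The medians of these 9 sets run from 0.01 for glucuronic acid supply to 0.58 for the tubule markers.

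Por, which passes electrons from NADPH to cytochromes P450, and Pgrmc1, a haem-binding partner of these, rose among 9 genes for partners in the endoplasmic reticulum, and 0 fell (0.41 ± 0.09 and 0.31 ± 0.08, edgeR adjusted p = 0.0347 and 0.041). Por still passed without AZD1152 replicate 3, and leaving out any other library ended the call (edgeR adjusted p = 0.0632 to 0.117) and Pgrmc1 without any 1 of the 7 (0.0609 to 0.114), and both with total counts in place of TMM (0.0698 and 0.14). Of 15 tested regulators of drug metabolism and tubule genes (transcription factors, the coactivator Ppargc1a and the adaptor Keap1) 1 rose and 0 fell. Hnf4a, a driver of tubule and liver enzyme genes, went from 803 ± 90.1 to 1074 ± 35.4 CPM (0.42 ± 0.10, edgeR adjusted p = 0.0387), and its call was lost without any 1 of the 7 libraries (0.0592 to 0.101). Among 11 tested carriers of conjugates and organic anions 0 rose and 1 fell. That was Slco2a1, a prostaglandin carrier (79.2 ± 6.20 and 54.7 ± 6.90 CPM, -0.53 ± 0.11, edgeR adjusted p = 0.0238), whose call was lost without vehicle replicate 3 (0.0982).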

How the data were processed

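Kidney RNA of 3 vehicle and 4 AZD1152 mice was analysed from raw read counts per Ensembl gene, deposited by the authors as whole-number counts without normalization. Per the submitters' processing notes, CASAVA, HISAT2 2.0.5, DESeq2, DESeq and the build GRCm38 were used. The sources used here do not name the read counter, its strand setting or its annotation. GENCODE mouse release M21 named 53360 of 53465 genes, and promoter sequences are RefSeq's for GRCm38.p6. Groups and replicate numbers came from the sample titles, and separate mice from the series text. No batch or date was labelled.

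Low counts were removed by filterByExpr, libraries were scaled by TMM, and group was the only term of the quasi-likelihood fit in edgeR 4.0.16 (R 4.3.3), with Benjamini-Hochberg adjustment over 15774 genes, two-sided, threshold 0.05. A standard error is the absolute log2 fold change over the root of the F statistic. Library totals of 14692113 to 17036862 counts put the floor of 3 counts at 0.167 to 0.213 TMM-scaled CPM, and PCR reads are not independent molecules, so this covers counting error only. The steps were tested on simulated data. No 2 libraries agreed within sampling noise (lowest chi-square per gene 10.8 over 21 pairs). Same-numbered mice are different animals, with correlations of -0.288, 0.209 and -0.119 between their deviations, so no pairing was used.

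The genes and lists were chosen with earlier results of these data known. Named were all called genes, the 3 most abundant tested genes of each family, every tested Ugt1a gene and, per list, up to 3 called genes or the 2 with the smallest p. Gusb and 6 further genes (Ces1f, Ugt2b34, Ugt2b37, Ugt2b38, Ugt3a1 and Ugt8a) were added after their values were seen, as were the ratios. Alternatives were RLE, upper-quartile and reduced TMM factors, total counts, no filter and a stricter filter (CPM of 1 in 3 libraries, mean CPM of 2), DESeq2 1.42.0, a robust fit, a replicate block and each library left out.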

Additional observations from a re-analysis of the deposited data

Results flagged for a closer look

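In 3 of 37 named genes, 1 of the 4 AZD1152 libraries stood far from the rest, with a gap to its nearest neighbour above Dixon's critical share of the group's range. Chance flags about 1 in 20 such groups. In each case it was AZD1152 replicate 2, and it was the highest. For Fmo1 the gap was 0.929 of the range, for Fmo4 0.875 and for Ugt1a2 0.831. The same library had 11.6% of its counts from the mitochondrial genome and the largest sum of proximal tubule markers, 35486 CPM, and the part of these in the values was not tested. Without it the Fmo1 call held, and 4 of the enzyme genes rose, in a fit that tested 31 of the 32.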

How the results depend on the processing

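The median log2 fold change of the tested genes stayed positive under all 16 alternatives, over the 26 to 32 of them that each setting tested, from 0.14 with total counts to 0.45 without AZD1152 replicate 1. The number that rose was 6, and 1 to 5 when 1 library was left out. The number that fell was 0, and 1 with total counts, with DESeq2 and without vehicle replicate 2, so that leaving out a library gave 0 to 1. Over all genes 476 rose and 759 fell. These became 232 and 1482 with total counts, which moved the median of all genes to -0.15 and the share of rises among the calls from 38.5% to 13.5%, and 954 rose with DESeq2. Leaving out 1 library gave 60 to 475 rises and 163 to 619 falls. With the replicate block, which rests on a shared number only, 1 of the enzyme genes rose, as did 63 of all genes, and 146 fell. In that fit Ces1d, Ces1e, Fmo1, Fmo5 and Ugt1a7c were not called. Estimates near 0 changed sign. Ces2c was at -0.080 with total counts. Ugt1a6a was at -0.029 with total counts and -0.091 with the replicate block, and Ugt1a6b at -0.074 and -0.23. Leaving out 1 library gave -0.082 to 0.31 for Ugt1a6a and -0.26 to 0.46 for Ugt1a6b, with negative values without vehicle replicate 3 (-0.071 and -0.23) and without AZD1152 replicate 4. Over the 37 named genes, 482 of 590 gene and setting pairs kept their direction and side of the threshold. Of the rest, 89 lost the call, 10 gained one and 9 changed sign, and the causes were not tested. Only a gene called in the main fit can lose a call, and an uncalled gene counts as kept by staying uncalled. The 89 are therefore a larger share of the pairs of called genes than of all 590. Genes near 1 CPM, such as Ugt1a1 and Ugt1a6b, rest on few counts.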

Other observations

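Among the 20 genes with counts too low for the test, Sult4a1, a sulfotransferase known from brain, had 8, 5 and 27 counts in vehicle libraries and 0, 0, 5 and 3 counts in AZD1152 libraries. Ugt1a9 had 0, 1 and 7 counts with vehicle and 7, 5, 2 and 4 counts with AZD1152. Both genes were picked after their counts were seen, neither was tested, and the groups overlapped in both.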
